A study of Homo sapiens with 19 samples.

Results

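The control siRNA libraries of HepaRG cells were compared between the 2 batches of a study of RNA editing enzymes, to describe how far the cells of each batch had the expression of mature liver cells. Libraries were chosen by the treatment label siNC and by their batch label, which gave 3 libraries of batch 1 and 3 libraries of batch 2, 6 of 19 libraries in all. HepaRG is a human line labelled as hepatic carcinoma, and every library came from this 1 line. Per the labels' protocols, cells were grown and differentiated with the supplier's media in 12-well plates and then received Silencer Select negative control #1 at 20 nM with a lipid reagent. Their medium was renewed after 24 h and exchanged for a serum-free induction medium after 48 h. The batch 2 controls are labelled as the controls for the IFNa and BX795 treatments, and no other difference in handling between the batches is labelled. Of the other 13 libraries, batch 1 held 3 with siRNA against ADAR and 3 with siRNA against ADARB1. Batch 2 held 2 with interferon alpha (IFNa, 1000 U/mL), 3 with the kinase inhibitor BX795 (1 µM) and 2 with BX795 and the ADAR siRNA. Separate cultures are not stated for the replicates, so p-values here measure the spread between libraries alone, which may be technical.

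HepaRG progenitors divide, reach confluence and then mature into colonies of hepatocyte-like cells among flatter biliary-like cells. Mature hepatocytes secrete most plasma proteins, detoxify ammonia in the urea cycle, release glucose, make bile acids and oxidise and conjugate drugs. A network of transcription factors, among them HNF4A, CEBPA and the FOXA proteins, keeps these genes active, and cultured hepatocytes are known to lose them. Cells on the way to or away from this state are commonly followed by biliary and progenitor markers, by matrix and cytoskeleton genes of mesenchymal cells, and by genes of DNA replication and mitosis.

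Batch and control group were the same division of the libraries, so a different state of the cells and a different handling, library or sequencing run of a batch cannot be told apart. In RNA from whole wells, fewer cells of a type and less RNA per cell cannot be told apart either. Total counts were 45.8 to 77.1 M in the batch 1 controls and 13.1 to 22.8 M in the batch 2 controls, so low genes carried more counting error in batch 2. Messenger RNA of the mitochondrial genome took 6.26% to 6.95% of counts in batch 1 and 1.62% to 3.2% in batch 2. The GC trend is the log2 level of genes over 60% GC less that of genes under 40% GC. It was -0.18 to -0.14 in the batch 1 controls, relative to the mean of all 19 libraries. In the batch 2 controls it was 0.33, 1.11 and 0.95 for replicates 1, 2 and 3. The knockdown libraries of batch 1 had -0.15 to 0.02 and the treated libraries of batch 2 had -0.56 to 0.18. By chi-square per gene, batch 2 control replicate 1 stood apart from replicates 2 and 3, at 43.6 and 48.4 against 12.3 between the latter. Batch 1 control pairs had 12.2 to 19.6, but this measure grows with depth and does not compare the batches. Pearson's r of log2 CPM set replicate 1 apart little, at 0.9647 and 0.9684 against 0.9698 between replicates 2 and 3. Batch 1 control pairs had 0.9886 to 0.9942. The part of base composition, depth and mitochondrial RNA in the differences below was not tested. Counts of calls in the lists below were therefore also taken after a correction for GC content and with replicate 1 as the only batch 2 control, and the calls that held are given with them.

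Promoter sequence is shown for members whose letters match a factor of the cell cycle. The 250 bases before each gene start were taken from RefSeq (GRCh38.p14) and searched on both strands for TTTGGCGC, a form of the recognition motif of E2F proteins. Other forms were not searched, so a promoter without these letters is not shown to lack an E2F site. The letters were found in 150 of 27305 promoters, or 0.549%, and in 2 of 14 genes of the G1/S phase, or 14.3%. They were in none of 13 genes of the G2/M phase and none of 92 hepatocyte genes with an entry. A match describes these letters only and shows no bound factor. The sequences below are those of MCM6 (chr2:135876444-135876693, minus strand), a subunit of the replicative helicase, and E2F1 (chr20:33686386-33686635, minus strand), a factor that drives S phase entry, with the E2F letters in capitals. Both run 5′ to 3′ on the strand of the gene.
MCM6: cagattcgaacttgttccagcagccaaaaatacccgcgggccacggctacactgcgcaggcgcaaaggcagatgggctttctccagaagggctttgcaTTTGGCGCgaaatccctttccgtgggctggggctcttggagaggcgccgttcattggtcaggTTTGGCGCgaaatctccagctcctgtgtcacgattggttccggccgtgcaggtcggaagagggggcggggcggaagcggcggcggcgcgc
E2F1: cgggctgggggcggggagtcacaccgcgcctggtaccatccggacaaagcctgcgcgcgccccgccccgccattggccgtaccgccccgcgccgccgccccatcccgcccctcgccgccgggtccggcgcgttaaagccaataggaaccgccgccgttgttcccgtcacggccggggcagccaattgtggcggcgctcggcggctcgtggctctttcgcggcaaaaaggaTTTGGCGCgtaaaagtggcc

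Expression of the main hepatic drug oxidase and of albumin was far lower in every batch 2 control. Levels are counts scaled to 1 M per library with TMM factors (CPM). CYP3A4 (ENSG00000160868.16, chr7:99756967-99784184, GRCh38.p14), which oxidises a large part of all drugs, was at 228, 236 and 210 CPM in the batch 1 controls and at 1.62, 1.74 and 1.26 CPM in the batch 2 controls. The groups lay far apart, with a log2 difference of -7.16 ± 0.17 (SE, n = 3 each, edgeR adjusted p = 3.24e-16), or 143-fold lower. CYP2A6 (ENSG00000255974.8, chr19:40843541-40850447), the nicotine oxidase, was at 66.6, 71.0 and 53.8 CPM against 0.0395, 0 and 0.222 CPM. This gene was close to undetected in batch 2, where its 3 libraries held 4 counts in all against 10098 in batch 1, so the fitted log2 difference of -9.71 ± 0.27 rests on few counts.

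ALB (ENSG00000163631.19, chr4:73404287-73421482), which encodes albumin, was at 41600, 43800 and 42000 CPM in batch 1. In batch 2 it was at 6780, 7590 and 6230 CPM. The gene was thus still abundant in all batch 2 controls, at a log2 difference of -2.63 ± 0.08 (n = 3 each, edgeR adjusted p = 5.75e-15). CYP1B1 (ENSG00000138061.13, chr2:38067509-38076151), a cytochrome P450 found mainly outside the liver, was at 41.2, 42.7 and 41.9 CPM against 103, 119 and 114 CPM. It was higher in every batch 2 library, by 1.42 ± 0.07 (n = 3 each, edgeR adjusted p = 3.31e-12).

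**Figure D1:**
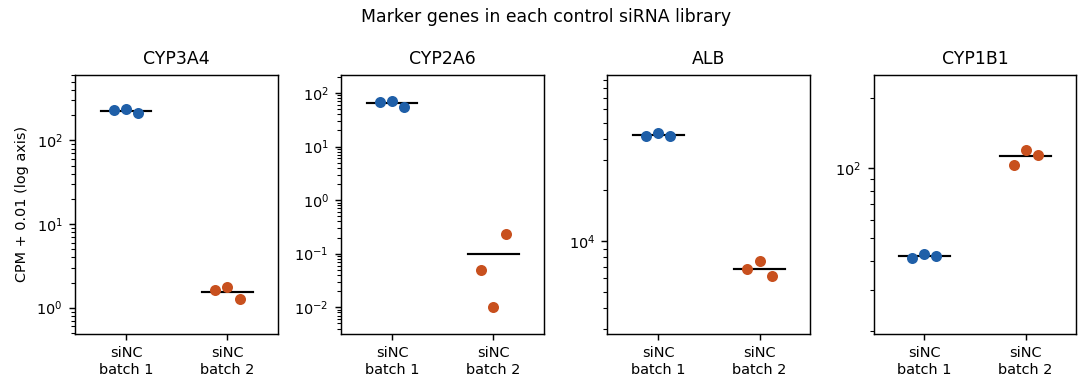
CPM plus 0.01 on a log axis for CYP3A4, CYP2A6, ALB and CYP1B1 in the 3 batch 1 and 3 batch 2 control libraries. Points are libraries and bars are group means. CYP3A4, CYP2A6 and ALB lie lower and CYP1B1 lies higher in every batch 2 library.

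Over all genes, 13443 of 23121 tested genes, or 58.1%, were called different (edgeR quasi-likelihood F test, Benjamini-Hochberg adjusted p below 0.05). Of all tested genes, 28.1% were higher and 30.0% lower in batch 2, and 3.59% were called at least 4-fold higher and 4.13% at least 4-fold lower. Counts of list members are read against these shares. Scaling by total counts moved the median of all genes from 0.02 to 0.27 on the log2 scale and the calls to 8834 higher and 4630 lower. The libraries of both groups did not overlap for 60.6% of tested genes.

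Hepatocyte genes were lower in batch 2 across every function examined. Of 122 genes in 7 hepatocyte lists, 121 passed the filter on low counts. Lower levels in batch 2 were called for 110 of them (90.9%, against 30.0% of all tested genes), higher levels for 4, and 7 were not called. At least 4-fold lower levels were called for 82 members, against 4.13% of all genes, and the libraries of both groups did not overlap for 114, against 60.6%. The median log2 difference was -3.01, against 0.02 for all tested genes. Of the 110 lower calls, 107 held without each of the 6 control libraries in turn, 109 held with the GC correction and 107 with replicate 1 as the only batch 2 control. By list, the lower calls that held under all of these were 12 of 13 for amino acid and urea metabolism, 19 of 20 for phase I enzymes, 14 of 16 for transcription factors and receptors, and all calls of the other 4 lists. Together, the counts of the 122 genes summed to 109000 to 117000 CPM in the batch 1 controls and to 21000 to 25200 CPM in the batch 2 controls. FBP1, the gluconeogenic fructose bisphosphatase, did not pass the filter, with 13 counts in the batch 1 controls and 0 in the batch 2 controls.

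All 20 genes of secreted plasma proteins were lower in batch 2, 18 of them at least 4-fold, with a median log2 difference of -3.01. Their differences spanned -8.25 to -1.34. The apolipoprotein gene APOA2 was at 124, 121 and 107 CPM in batch 1 and at 0.395, 0.622 and 0.0741 CPM in batch 2. TTR, the carrier of thyroid hormone and retinol, was at 2110, 2300 and 1980 CPM against 40.1, 42.2 and 34.8 CPM. Both genes fell to trace or low levels in all 3 batch 2 libraries, with differences of -8.25 ± 0.21 for APOA2 and -5.76 ± 0.11 for TTR (edgeR adjusted p = 4.97e-16 and 4.26e-17). The smallest differences were those of APOB, the structural protein of secreted lipoprotein particles, and SERPINA1, the alpha-1 antitrypsin gene. APOB was at 7590, 8450 and 7040 CPM against 3810, 2800 and 2530 CPM. SERPINA1 was at 10200, 11500 and 10400 CPM against 2970, 3190 and 2450 CPM, and neither gene overlapped between the groups. The 3 fibrinogen chain genes FGA, FGB and FGG differed by similar amounts, -2.31 ± 0.09, -2.73 ± 0.12 and -2.78 ± 0.13. The clotting factor gene F9 was at 28.1 to 31.7 CPM in batch 1 and at 0.356, 1.12 and 0.0741 CPM in batch 2.

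Genes of nitrogen metabolism differed by member. Of 15 genes of amino acid and urea metabolism, 13 were lower in batch 2 and 2 were not called, with a median of -2.54. Within the urea cycle, CPS1, the enzyme that fixes ammonia, was at 762, 827 and 706 CPM against 25.7, 21.1 and 20.0 CPM. OTC, the next enzyme, was at 47.1, 46.8 and 44.0 CPM against 1.07, 0.622 and 0.741 CPM, and ARG1, the last enzyme, at 58.7, 61.1 and 55.4 CPM against 0.514, 0.56 and 0.445 CPM. All 3 were far lower in every batch 2 library, by -5.09 ± 0.13, -5.75 ± 0.12 and -6.83 ± 0.20 (edgeR adjusted p = 7.21e-16, 7.57e-17 and 3.4e-15). The enzymes between them, ASS1 and ASL, also serve arginine synthesis outside the liver. ASS1 was at 431, 430 and 412 CPM against 422, 497 and 392 CPM, with overlapping groups and a difference of 0.04 ± 0.07 (edgeR adjusted p = 0.621). ASL differed by -0.37 ± 0.10. MAT1A, the adult liver methionine adenosyltransferase, differed by -2.54 ± 0.10. SDS, a serine dehydratase, was the other gene not called, at 0.416 to 0.972 CPM in batch 1 and 0.741 to 2.24 CPM in batch 2, and was called without batch 1 replicate 3 (1.13) or batch 2 replicate 3 (1.09).

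In glucose and lipid metabolism, 12 of 14 tested genes were lower, 2 were higher, and the median was -3.98. G6PC1, the enzyme that releases free glucose, was at 128, 136 and 101 CPM against 0.474, 0.622 and 0.148 CPM, a difference of -8.11 ± 0.20 (edgeR adjusted p = 5e-16). PKLR, the liver pyruvate kinase, was at 112, 108 and 98.5 CPM against 1.46, 2.55 and 2.52 CPM. FABP1, the liver fatty acid carrier, was at 172, 193 and 179 CPM against 2.37, 2.74 and 1.85 CPM. Batch 2 libraries were low for all 3 genes with no exception. The 2 higher genes act in fatty acid oxidation. CPT1A, which admits long-chain fatty acids to mitochondria, was at 119 to 121 CPM in batch 1 and at 127, 179 and 180 CPM in batch 2. Its difference of 0.42 ± 0.09 became 0.08 and was no longer called with replicate 1 as the only batch 2 control. ACADL, an acyl-CoA dehydrogenase, was at 70.1, 63.5 and 65.3 CPM against 106, 86.4 and 106 CPM, a difference of 0.59 ± 0.08 (edgeR adjusted p = 7.43e-06). Between the treated batch 2 and knockdown batch 1 libraries, CPT1A was called lower (-0.24, edgeR adjusted p = 0.00262) and ACADL higher (1.42).

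Drug oxidation genes were all lower in batch 2. This held for 20 of 20 genes of cytochromes P450 and other phase I enzymes, 14 of them at least 4-fold, with a median of -4.33. Near-identical relatives (CYP2A, CYP2C, CYP3A, ADH1, UGT1A, UGT2B, GSTA and SAA) share reads, so single members of these families are uncertain. CYP2C8, which oxidises paclitaxel, was at 181, 181 and 168 CPM against 7.63, 8.64 and 5.48 CPM. CYP2E1, which oxidises ethanol and paracetamol, was at 73.3, 76.8 and 73.0 CPM against 2.02, 2.98 and 2.15 CPM. Both genes were lower in every batch 2 library, by -4.59 ± 0.11 and -4.98 ± 0.11 (edgeR adjusted p = 3.67e-16 and 1.93e-16). CYP2B6 differed by -4.81 ± 0.14 and CYP1A2 by -4.46 ± 0.31. The alcohol dehydrogenase genes ADH1A and ADH4 differed by -7.32 ± 0.21 and -5.89 ± 0.12.

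Smaller differences were found for a set of phase I genes. CYP3A5 was at 439, 429 and 409 CPM against 233, 210 and 190 CPM, and CES1, the main liver carboxylesterase, at 3900, 3940 and 3740 CPM against 1890, 2260 and 1840 CPM. AOX1, an aldehyde oxidase, was at 1090, 1140 and 1050 CPM against 740, 661 and 595 CPM. These genes remained well expressed in batch 2, with differences of -1.01 ± 0.08, -0.95 ± 0.07 and -0.72 ± 0.08. CES2, a second carboxylesterase, differed by -0.90 ± 0.08. CYP2D6 differed by -0.92 ± 0.29 at a level of at most 1.47 CPM, and its call ended without batch 2 replicate 3 (-0.68).

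All 14 conjugating enzymes of phase II were lower, 11 of them at least 4-fold, with a median of -3.61. GSTA2, a glutathione transferase, was at 195, 197 and 205 CPM against 8.89, 8.27 and 8.3 CPM. UGT2B4, which glucuronidates bile acids, was at 542, 540 and 511 CPM against 25.4, 24.6 and 19.3 CPM. Neither gene overlapped between the groups, and the differences were -4.54 ± 0.09 and -4.51 ± 0.12 (edgeR adjusted p = 4.26e-17 and 7.21e-16). UGT1A1, which conjugates bilirubin, was at 168, 178 and 165 CPM against 53.8, 67.1 and 71.9 CPM, a difference of -1.41 ± 0.09. SULT1A1, a phenol sulfotransferase found in many tissues, differed least, by -0.83 ± 0.08.

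Bile acid genes were lower with 1 exception among those called. Of 17 genes of bile acid synthesis and hepatocyte transport, 15 were lower, 14 of them at least 4-fold, 1 was higher and 1 was not called. CYP7A1, the rate-limiting enzyme of bile acid synthesis, was at 70.5, 67.3 and 60.8 CPM against 0.593, 0.746 and 0.741 CPM, a difference of -6.61 ± 0.16 (edgeR adjusted p = 4.55e-16). CYP27A1, a mitochondrial sterol hydroxylase that opens the alternative route and is found in many tissues, was at 74.4, 80.8 and 72.6 CPM against 113, 131 and 113 CPM. Here every batch 2 library was higher, with a difference of 0.65 ± 0.08 (edgeR adjusted p = 8.23e-07). SLCO1B1 was at 113, 107 and 103 CPM against 2.57, 2.24 and 2.96 CPM, a difference of -5.39 ± 0.11 (edgeR adjusted p = 6.87e-17). SLCO1B3, its close relative, was at 3.01, 2.94 and 3.26 CPM against 4.62, 2.11 and 5.11 CPM, with overlapping groups and a difference of 0.36 ± 0.20 (edgeR adjusted p = 0.124). SLCO1B3 was called higher without batch 2 replicate 2 (0.65) and with the GC correction, total counts or upper-quartile factors. A filter of at least 5 CPM in 3 libraries also gave this call. SLC10A1, the bile acid importer that also serves as the hepatitis B virus receptor, differed by -3.61 ± 0.26, and ABCB11, the canalicular bile salt export pump, by -5.47 ± 0.23. ABCC2, the canalicular exporter of conjugates, was at 489, 488 and 505 CPM against 146, 129 and 115 CPM.

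Most transcription factors and receptors of the liver network were lower, with a median of -1.60 over 21 genes. Of these, 16 were lower in batch 2, 6 of them at least 4-fold, 1 was higher and 4 were not called. HNF4A, a nuclear receptor at the centre of the network, was at 298, 307 and 280 CPM against 78.9, 96.7 and 71.4 CPM. CEBPA, a factor that keeps hepatocytes mature, was at 58.0, 57.4 and 52.3 CPM against 8.65, 12.7 and 14.6 CPM. Both were lower in every batch 2 library, by -1.84 ± 0.09 and -2.25 ± 0.16 (edgeR adjusted p = 2.54e-12 and 1.53e-09). Among the FOXA factors, which open chromatin at liver genes, FOXA3 differed by -3.11 ± 0.21, FOXA1 by -1.96 ± 0.11 and FOXA2 by -0.54 ± 0.09. NR1I3 (CAR), a receptor that induces drug oxidases, was at 8.84, 8.42 and 6.73 CPM against 0.277, 0.249 and 0.148 CPM. NR0B2 (SHP), which represses bile acid synthesis, was at 5.66, 6.12 and 4.83 CPM against 0.079, 0.373 and 0.0741 CPM. Both were near the limit of detection in batch 2, with 13 and 9 counts in all. NR1I2 (PXR), the receptor that induces CYP3A4, was at 44.4, 41.5 and 40.7 CPM against 6.56, 9.64 and 7.11 CPM.

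CEBPB, a factor of the acute-phase response and of early liver cells, was the 1 higher member. It was at 161, 160 and 160 CPM in batch 1 and at 392, 533 and 577 CPM in batch 2, a difference of 1.64 ± 0.14 (edgeR adjusted p = 8.7e-09). RXRA, the shared partner of many nuclear receptors, GATA4 and GATA6, factors of early liver development, and ESRRG were not called, at differences of -0.03 ± 0.09, 0.15 ± 0.11, 0.25 ± 0.12 and -0.22 ± 0.13. Without batch 2 replicate 1, GATA4 (0.30), GATA6 (0.38) and ESRRG (-0.43) were called. GATA4 turned to -0.33 with the GC correction. Scaling by total counts turned RXRA to 0.21 and PPARA, a receptor of fatty acid use, from -0.23 to 0.02. The call of PPARA also ended without batch 1 replicate 1 (-0.22) or 2 (-0.22) and without batch 2 replicate 2 (-0.19) or 3 (-0.19).

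**Figure D2:**
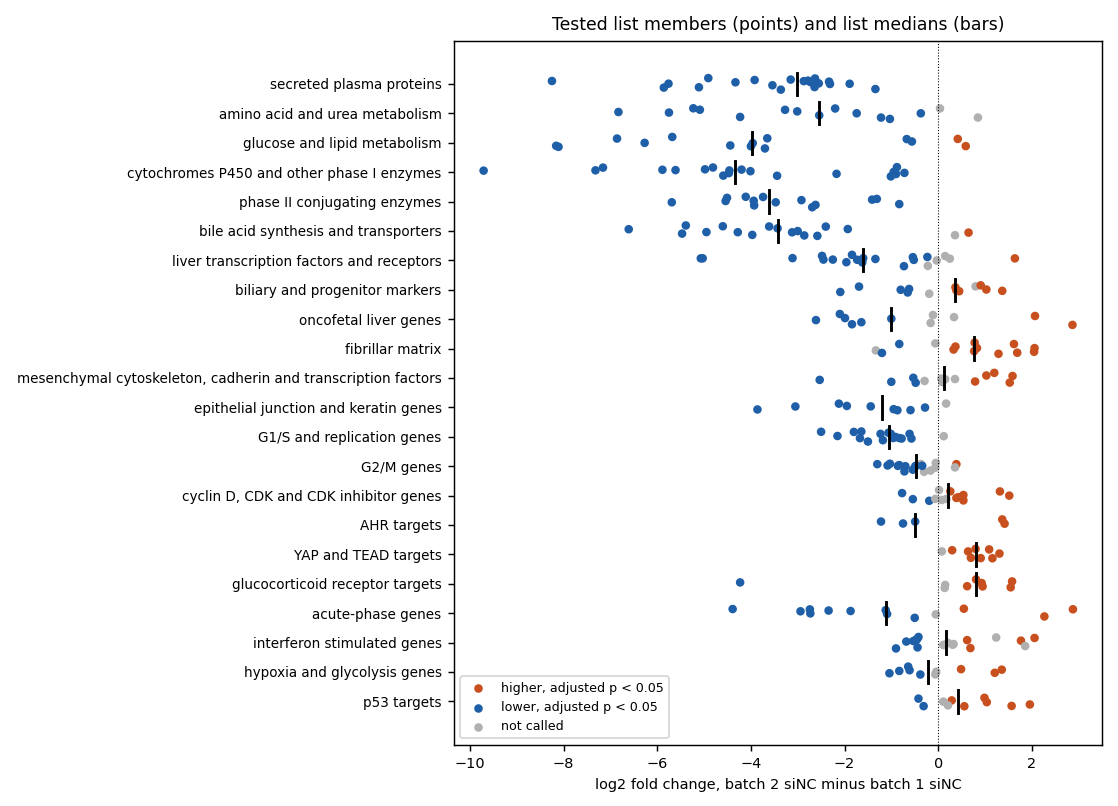
Log2 difference, batch 2 controls minus batch 1 controls, for each tested member of 22 gene lists. Points are genes, coloured by call at adjusted p below 0.05, and bars are list medians. The hepatocyte lists lie left of 0 with medians of -4.33 to -1.60, and the YAP and TEAD targets and the fibrillar matrix genes lie mostly right of 0.

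Ratios within a library do not depend on scaling between libraries, and they were taken for 7 pairs of an adult liver gene and a relative with a wider or fetal expression. No GC correction was applied to them, so the part of base composition in these ratios was not tested. The log2 ratio of counts (with 0.5 added to each) was lower in batch 2 for 7 of 7 pairs, and for 6 the 3 and 3 libraries did not overlap. Each of these 6 had a two-sided exact permutation p = 0.1, the smallest that 3 against 3 libraries allow, and 0.117 after Benjamini-Hochberg adjustment over 7 pairs, so the design could not reach 0.05. The ratio of SLC2A2, the liver glucose transporter, to SLC2A1, that of most dividing cells, was 2.31, 2.39 and 2.24 in batch 1 and -3.22, -3.71 and -3.61 in batch 2. Its partner gene SLC2A1 was itself higher in batch 2, by 1.36 ± 0.06. The other partners called higher were PKM by 0.63 ± 0.06, GYS1 by 1.02 ± 0.07, PYGB by 0.82 ± 0.09 and MAT2A by 0.58 ± 0.07.

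The ratio of PKLR to PKM, the liver and general pyruvate kinases, differed by -6.26. That of GYS2 to GYS1, the liver and muscle glycogen synthases, differed by -5.09. MAT1A to MAT2A differed by -3.14 and PYGL to PYGB by -1.36. In the other libraries the PYGL to PYGB ratio did not follow batch. In batch 1 it was -0.07 to -0.01 under siADAR and 0.79 to 0.89 under siADARB1. In batch 2 it was -0.09 to 0.09 under IFNa, 0.18 to 0.3 under BX795 and -1.2 to -0.92 under BX795 with siADAR. The fetal partners were themselves lower. CYP3A7, the fetal counterpart of CYP3A4, differed by -2.10 ± 0.19, and the ratio of CYP3A4 to CYP3A7 was 5.02, 4.95 and 4.85 against -0.42, 0.16 and 0.08. The ratio of ALB to AFP, the fetal plasma protein, was 13.9, 14.1 and 14 against 14, 13.3 and 12.7, and the groups overlapped (exact permutation p = 0.2, adjusted 0.2).

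**Figure D3:**
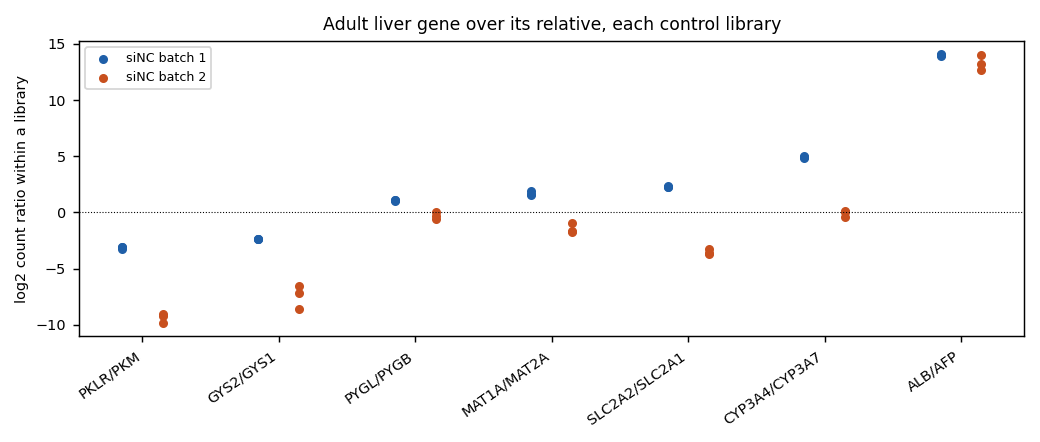
Log2 ratio of counts, adult liver gene over its relative, in each of the 6 control libraries (points) for 7 pairs. Batch 2 libraries lie lower for 6 pairs with no overlap, and overlap for ALB over AFP.

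Biliary and progenitor markers moved in both directions. Of 18 genes, 13 passed the filter, of which 6 were higher, 5 lower and 2 not called, and the median was 0.37 (-0.05 with the GC correction). Their shares were 46.2% higher and 38.5% lower, against 28.1% and 30.0% of all tested genes. Summed over the list, levels were 775 to 854 CPM in batch 1 and 590 to 675 CPM in batch 2. KRT19, the keratin of bile ducts and hepatic progenitors, was at 304, 304 and 339 CPM against 156, 223 and 225 CPM. KRT7, the other ductal keratin, was at 1.44, 1.88 and 1.23 CPM against 3.48, 3.85 and 4.37 CPM. These keratins thus differed in opposite directions, by -0.65 ± 0.12 and 1.37 ± 0.18 (edgeR adjusted p = 0.000203 and 3.09e-06). SPP1 (osteopontin), secreted by duct cells, was at 30.7, 28.6 and 31.3 CPM against 6.68, 6.96 and 7.78 CPM. SOX4, a factor of duct formation, was at 67.7, 76.3 and 84.5 CPM against 120, 142 and 167 CPM. SOX9, the factor that marks duct and progenitor cells, was at 16.8, 16.4 and 17.6 CPM against 19.3, 24.5 and 22.2 CPM. Its difference of 0.37 ± 0.08 lost its call with replicate 1 as the only batch 2 control (0.19). JAG1, a Notch ligand, differed by 0.39 ± 0.07, and HES1, a Notch target, was not called (-0.19 ± 0.12), except without batch 2 replicate 2 (-0.31). Of the 6 higher calls, 5 held with the GC correction and 4 with replicate 1 as the only batch 2 control, and of the 5 lower calls 5 and 4 held. EPCAM was listed at 0 in all 6 controls and at no more than 0.0167 CPM in all 19 libraries. Whether the annotation used for counting has a part in this was not tested, so the listed level does not show that the marker is absent. CFTR, SCTR and PROM1 were at most 0.305 CPM.

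Of 14 oncofetal liver genes, 11 were tested, 6 lower, 2 higher and 3 not called, with a median of -1.0. The shares were 54.5% lower and 18.2% higher, against 30.0% and 28.1% of all tested genes. AFP was at 2.65, 2.49 and 2.51 CPM against 0.395, 0.746 and 0.889 CPM. PEG10, an imprinted gene of placenta and liver tumours, was at 1570, 1630 and 1740 CPM against 295, 250 and 262 CPM. Both were lower in every batch 2 library, by -1.99 ± 0.23 and -2.61 ± 0.09 (edgeR adjusted p = 7.6e-07 and 1.49e-14). AKR1B10, a reductase raised in liver tumours, differed by -1.64 ± 0.07. The noncoding RNA H19 was at 15.2, 13.1 and 15.7 CPM against 10.1, 15.8 and 14 CPM and was not called. All 6 lower calls held with the GC correction and with replicate 1 as the only batch 2 control. The 2 higher members, IGF2 and IGF2BP1, were at most 0.622 CPM. Neither call held with each control library left out: IGF2 went from 2.07 to 1.6 without batch 1 replicate 3, to 1.44 without batch 2 replicate 2 and to 1.91 without batch 2 replicate 3, and IGF2BP1 from 2.87 to 2.30 without batch 2 replicate 2.

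Between the controls, matrix genes were higher in batch 2, while junction genes were lower. Of 15 fibrillar matrix genes, 14 were tested, 10 higher (against 28.1% of all tested genes), 2 lower and 2 not called, with a median of 0.78. COL3A1, a fibrillar collagen, was at 30.2, 28.7 and 32.2 CPM against 97.2, 138 and 143 CPM. COL5A1, a collagen that nucleates fibrils, was at 116, 109 and 121 CPM against 360, 520 and 562 CPM. Both were higher in every batch 2 library, by 2.05 ± 0.15 and 2.06 ± 0.15 (edgeR adjusted p = 1.88e-09 and 1.15e-09). DCN (decorin) was at 20.2, 18.6 and 21.7 CPM against 68.9, 66.4 and 59.7 CPM, and TNC (tenascin C) at 39.0, 39.2 and 41.1 CPM against 97.4, 111 and 84.2 CPM. FN1 (fibronectin), the most counted member, was at 4670, 4870 and 4790 CPM against 6900, 6010 and 5040 CPM, a difference of 0.33 ± 0.11 whose call ended without batch 2 replicate 1 (0.21). POSTN (periostin) was lower, by -0.83 ± 0.10. Of the 10 higher calls, 8 held without each control library in turn, 9 with the GC correction and 9 with replicate 1 as the only batch 2 control. COL1A1 lost its call in both of the latter, with differences of 0.36 and 0.41 in place of 0.77 ± 0.22.

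Other mesenchymal genes were mixed. Of 17 genes of the cytoskeleton, cadherins and transcription factors, 14 were tested, with 5 higher, 4 lower, 5 not called and a median of 0.12. Their shares were 35.7% higher and 28.6% lower, near the 28.1% and 30.0% of all tested genes. PDGFRB, a receptor of pericytes and stellate cells, was at 18.1, 20.5 and 17.6 CPM against 53.3, 64.5 and 51.5 CPM. TWIST1, a factor of epithelial to mesenchymal transition, was at 22.4, 22.8 and 26.4 CPM against 45.1, 57.1 and 63.1 CPM, and SNAI2 of the same class differed by 0.79 ± 0.12. SNAI1 was at 1.74, 1.98 and 1.90 CPM against 0.474, 0.124 and 0.296 CPM. The first 3 of these were higher and SNAI1 was lower in all batch 2 libraries, at differences of 1.59 ± 0.08 for PDGFRB, 1.2 ± 0.11 for TWIST1 and -2.53 ± 0.34 for SNAI1. CDH2, the cadherin of hepatocytes as well as of mesenchymal cells, differed by -1.0 ± 0.10. ACTA2, the actin of myofibroblasts, was at 38, 44.0 and 40.7 CPM against 43.7, 44.1 and 40.5 CPM and was not called. VIM (vimentin) was listed at no more than 1.11 CPM in all 19 libraries, and whether the annotation used for counting has a part in this low level was not tested. It is counted among the higher calls, at 1.53 ± 0.55. Of the 5 higher calls of this list, 5 held with the GC correction and 4 with replicate 1 as the only batch 2 control, and all 4 lower calls held under both.

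Of 12 epithelial junction and keratin genes, 10 were tested, of which 9 were lower in batch 2 and 1 was not called, with a median of -1.19. CDH1, the cadherin of epithelial junctions, was at 96.5, 97.4 and 91.1 CPM against 23.8, 23.4 and 17.8 CPM, a difference of -2.12 ± 0.09 (edgeR adjusted p = 1.32e-12). CGN (cingulin) and the claudin gene CLDN3, both of tight junctions, differed by -1.95 ± 0.08 and -3.86 ± 0.34. ESRP2, an epithelial splicing factor of adult hepatocytes, was at 69.1, 68.4 and 69.2 CPM against 20.7, 30.9 and 25 CPM. Of the keratin pair of hepatocytes, KRT18 was lower, by -0.87 ± 0.08, and KRT8 was not called (0.17 ± 0.11). KRT8 was called higher without batch 2 replicate 1 (0.29) and with total counts, upper-quartile factors or the length correction. The same held with a filter of at least 5 CPM in 3 libraries. TJP1, a tight junction scaffold, was at -0.28 ± 0.09, and turned to 0.04 with the GC correction. Its call also ended without batch 1 replicate 3 (-0.25) and without batch 2 replicate 2 (-0.20) or 3 (-0.23). Of the 9 lower calls, 8 held with the GC correction and 8 with replicate 1 as the only batch 2 control.

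Replication genes and a part of the mitotic genes were lower in batch 2. Of 17 genes of the G1/S phase and of replication, 16 were lower (94.1%, against 30.0% of all tested genes), and 1 was not called. Their median was -1.06, and 16 lower calls were found under each alternative run. MCM6, whose promoter holds 2 of the E2F letter runs printed above, was at 42.6, 40.4 and 45.7 CPM against 12.9, 11.1 and 13 CPM. E2F1 was at 12.5, 13.3 and 11.6 CPM against 4.90, 7.52 and 5.71 CPM. Batch 2 libraries were lower for both, with differences of -1.80 ± 0.07 and -1.06 ± 0.14 (edgeR adjusted p = 2.62e-13 and 5.02e-06). CDC6, which loads the helicase, was at 16.8, 18.9 and 18.4 CPM against 4.39, 3.92 and 3.78 CPM, and CCNE2, a cyclin of S phase entry, differed by -2.50 ± 0.20. PCNA, the sliding clamp, differed by -0.57 ± 0.06. CCNE1, the other cyclin E, was the member not called, at 0.12 ± 0.16.

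Of 18 genes of the G2/M phase, 11 were lower, 1 was higher and 6 were not called, and the median was -0.48. The shares were 61.1% lower and 5.56% higher, against 30.0% and 28.1% of all tested genes. MKI67, the proliferation antigen Ki-67, was at 67.6, 68.6 and 74.5 CPM against 37.1, 36.8 and 28.7 CPM, and CDK1, the mitotic kinase, at 13.3, 13 and 15.7 CPM against 5.81, 5.84 and 5.41 CPM. Both were lower in every batch 2 library, by -1.03 ± 0.10 and -1.30 ± 0.15 (edgeR adjusted p = 7.06e-08 and 5.38e-07). BIRC5 (survivin) and CDC20, an activator of anaphase, were not called, at -0.05 ± 0.14 and -0.16 ± 0.19. Of the 11 lower calls, 10 held without each control library in turn, 8 with the GC correction and 9 with replicate 1 as the only batch 2 control. The single higher call, PLK1 (0.39 ± 0.16), ended without batch 1 replicate 1 (0.30) or 3 (0.40) and without batch 2 replicate 2 (0.21). The PLK1 call also ended with the GC correction, without an expression filter, with the compared groups alone and with the replicate block.

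Of 15 cyclin D, CDK and CDK inhibitor genes, 14 were tested, with 7 higher, 3 lower and 4 not called. CDKN2A, which encodes p16 and p14ARF, was at 24.2, 25.2 and 25 CPM against 50.3, 72.0 and 92.3 CPM. Its neighbour CDKN2B, which encodes p15, was at 49.8, 50.2 and 56.8 CPM against 115, 126 and 151 CPM. Both inhibitors of CDK4 and CDK6 were higher in all batch 2 libraries, by 1.52 ± 0.22 and 1.32 ± 0.08 (edgeR adjusted p = 1.07e-05 and 1.12e-10). CDKN1A (p21) was at 347, 366 and 353 CPM against 344, 401 and 379 CPM, was not called (0.08 ± 0.06) and turned to -0.22 with the GC correction. MYC differed by 0.54 ± 0.06, and RB1, the pocket protein that restrains E2F, by -0.77 ± 0.09. The 7 higher calls held with the GC correction and 6 of them with replicate 1 as the only batch 2 control, and the 3 lower calls held under both.

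**Figure D4:**
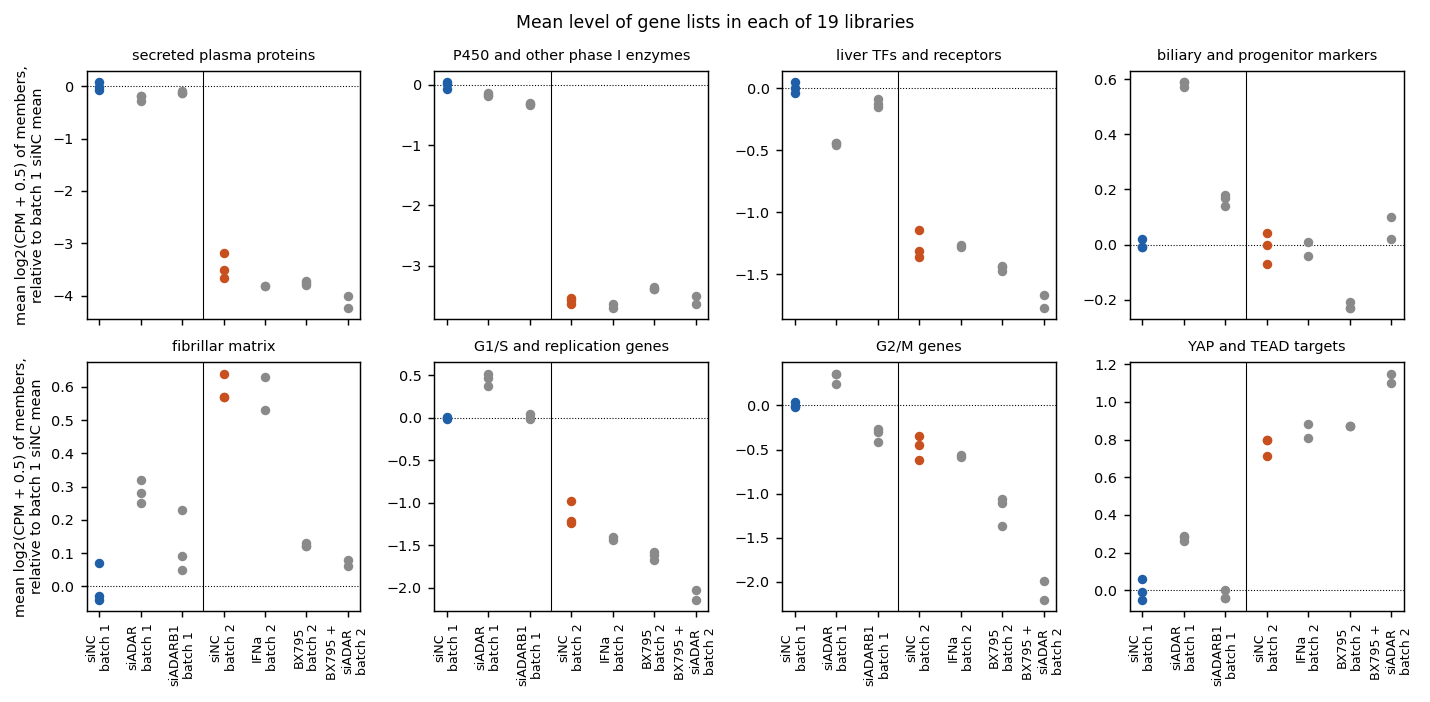
Mean log2(CPM + 0.5) of the members of 8 gene lists in each of 19 libraries, relative to the mean of the batch 1 controls (blue), with batch 2 controls in orange and all other libraries in grey. Batch 2 controls lie 3.19 to 3.66 lower for secreted plasma proteins, 0.98 to 1.24 lower for G1/S genes and 0.57 to 0.64 higher for fibrillar matrix.

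Lists of signalling targets placed further features beside these states. Of 9 targets of YAP and TEAD, factors that respond to cell shape and contact, 8 were higher in batch 2 (against 28.1% of all tested genes) and 1 was not called, with a median of 0.80. AMOTL2 was at 218, 218 and 222 CPM against 485, 598 and 553 CPM, and CCN1 at 191, 204 and 226 CPM against 377, 411 and 380 CPM. Both were higher in every batch 2 library, by 1.31 ± 0.08 and 0.91 ± 0.06 (edgeR adjusted p = 9.51e-11 and 5.11e-10). ANKRD1 was not called, at 0.08 ± 0.07, and the call of TEAD1 (0.30 ± 0.10) ended without batch 1 replicate 1 (0.28) and without batch 2 replicate 1 (0.14). All 8 higher calls held with the GC correction and with replicate 1 as the only batch 2 control. Of 9 glucocorticoid receptor targets, 6 were higher (66.7%, against 28.1% of all tested genes), 1 was lower and 2 were not called. With the GC correction 5 of the higher calls held, with replicate 1 as the only batch 2 control all 6, and the lower call held under both. TSC22D3, which encodes the anti-inflammatory protein GILZ, was at 266, 260 and 241 CPM against 733, 740 and 823 CPM. The lower one was TAT, the tyrosine aminotransferase of hepatocytes, at 47.6, 48.4 and 34.4 CPM against 2.33, 2.67 and 1.85 CPM. TAT is also a member of the amino acid list.

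Acute-phase genes separated by member. Among those tested, 23.1% were higher and 69.2% lower, against 28.1% and 30.0% of all tested genes. Of 14, 13 were tested, with 3 higher, 9 lower and 1 not called, and these calls held with the GC correction and with replicate 1 as the only batch 2 control. The serum amyloid genes SAA1 and SAA2 were higher, SAA2 at 166, 183 and 167 CPM against 1150, 1300 and 1340 CPM. CRP (C-reactive protein) was at 43.0, 45.0 and 38.7 CPM against 8.26, 8.83 and 7.93 CPM, and HP (haptoglobin) at 8010, 7930 and 7590 CPM against 2170, 2290 and 1970 CPM. These differences were 2.88 ± 0.08 for SAA2, -2.34 ± 0.09 for CRP and -1.87 ± 0.09 for HP (edgeR adjusted p = 3.43e-15, 2.16e-13 and 2.27e-12). Of 5 targets of the aryl hydrocarbon receptor (AHR), CYP1B1 and AHRR were higher. AHRR, its repressor, was at 30.4, 30.0 and 30.5 CPM against 71.8, 82.0 and 82.3 CPM, and the other 3, CYP1A1, TIPARP and NQO1, were called lower, at -0.75 ± 0.28, -0.49 ± 0.11 and -1.22 ± 0.22. The call of CYP1A1 ended without batch 1 replicate 2 (-0.59) and without batch 2 replicate 2 (-0.61) or 3 (-0.57). With replicate 1 as the only batch 2 control, CYP1A1 (-0.26) and TIPARP (-0.31) were not called, and with the GC correction TIPARP (-0.16) was not, while both higher calls held.

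Of 18 interferon stimulated genes, 4 were higher, 7 lower and 7 not called, with a median of 0.17. These are 22.2% higher and 38.9% lower, against 28.1% and 30.0% of all tested genes. In all 61.1% were called, close to the 58.1% of all tested genes. The balance of this list depended on scaling, since 8 were higher and 3 lower with total counts and 7 higher and 4 lower with upper-quartile factors. Of the 4 higher calls, 2 held without each control library in turn, 2 with the GC correction and 2 with replicate 1 as the only batch 2 control, and of the 7 lower calls 4 held under each of these. Without batch 2 replicate 2, 2 were higher and 6 lower. Among 10 p53 targets, 6 were higher, and 5 of these calls held with the GC correction and 5 with replicate 1 as the only batch 2 control. The 2 lower members, SESN1 (-0.31 ± 0.09) and RRM2B (-0.42 ± 0.10), lost their calls with the GC correction (0.09 and -0.05) and with replicate 1 as the only batch 2 control (-0.11 and -0.21). With total counts 8 p53 targets were higher and none lower. GDF15, a stress cytokine, was at 39.9, 41.9 and 46.0 CPM against 123, 195 and 180 CPM. Of 10 hypoxia and glycolysis genes, 3 were higher, 5 lower and 2 not called, and the median was -0.22 (0.03 when scaled by total counts). The 3 higher calls held with the GC correction and with replicate 1 as the only batch 2 control, and 4 of the 5 lower calls held under each. CA9, a carbonic anhydrase induced by low oxygen, differed by -1.04 ± 0.21 and ADM (adrenomedullin) by 1.21 ± 0.10.

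Markers of cell types that a hepatic culture should lack were mostly near 0. Of 33 endothelial, macrophage, lymphocyte and intestinal genes, 15 passed the filter, 26 were under 1 CPM in all 6 controls and 5 were at 0 in all 6. Summed levels were 153 to 167 CPM against 411 to 456 CPM for the endothelial list and 42.7 to 52.7 CPM against 36.7 to 41.7 CPM for the macrophage list. They were 8.04 to 9.11 CPM against 12.0 to 13.2 CPM for the lymphocyte list, and 42.4 to 48.7 CPM against 6.68 to 8.15 CPM for the intestinal list. The endothelial sum was almost all KDR, a VEGF receptor gene, at 166, 163 and 152 CPM against 455, 409 and 440 CPM, while the defining genes PECAM1, CDH5 and VWF were at most 0.74 CPM. VIL1 (villin), a brush border gene also found at bile canaliculi, was at 34.0, 30.5 and 35.9 CPM against 6.12, 5.53 and 6.23 CPM. PTPRC, which encodes the leukocyte antigen CD45, was at most 0.373 CPM.

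The 13 libraries outside the controls gave the same batch comparison with no shared library, though with different treatments: the 7 treated batch 2 libraries against the 6 knockdown libraries of batch 1. Here 15097 of 23121 genes were called, or 65.3%, with 33.2% higher and 32.1% lower in batch 2. Genes called in the same direction in both comparisons numbered 9330, which is 69.4% of the control calls and 61.8% of these calls. Across genes, Pearson's r of the log2 differences was 0.702, as a description, since genes are not independent replicates. Of 121 hepatocyte genes, 109 were lower and 7 higher, with a median of -3.40, and 108 were called in the same direction in both comparisons. ALB differed by -2.61 ± 0.05, close to -2.63 ± 0.08 between the controls. For G2/M genes the median was -1.66 beside -0.48 between the controls, and for G1/S genes -2.33 beside -1.06. For fibrillar matrix it was 0.27 beside 0.78. Mean log2 levels relative to the batch 1 controls varied by group. For G2/M genes they were -0.59 to -0.56 under IFNa, beside -0.62 to -0.35 in the batch 2 controls. BX795 had -1.37 to -1.06, BX795 with siADAR -2.2 to -1.99, siADAR 0.24 to 0.36 and siADARB1 -0.41 to -0.27. For G1/S genes IFNa had -1.44 to -1.4, beside -1.24 to -0.98 in the batch 2 controls, and BX795 with siADAR -2.14 to -2.03. For fibrillar matrix IFNa had 0.53 to 0.63, beside 0.57 to 0.64 in the batch 2 controls. BX795 had 0.12 to 0.13 and BX795 with siADAR 0.06 to 0.08, which is below the 0.25 to 0.32 of siADAR in batch 1. The siADARB1 libraries had 0.05 to 0.23. The difference between these comparisons was not tested.

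Within the treated batch 2 libraries, CYP3A4 ranged from 2.15 to 122 CPM with a mean of 71.9 CPM under BX795, above every batch 2 control and below every batch 1 control. CYP2A6 stayed between 0.0257 and 0.202 CPM and ALB between 3770 and 5840 CPM in these libraries. CYP3A5, at -1.01 between the controls, was not called between the treated and knockdown libraries (-0.07, edgeR adjusted p = 0.268). H19, not called between the controls, differed there by -3.31, and BIRC5 by -2.18.

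**Figure D5:**
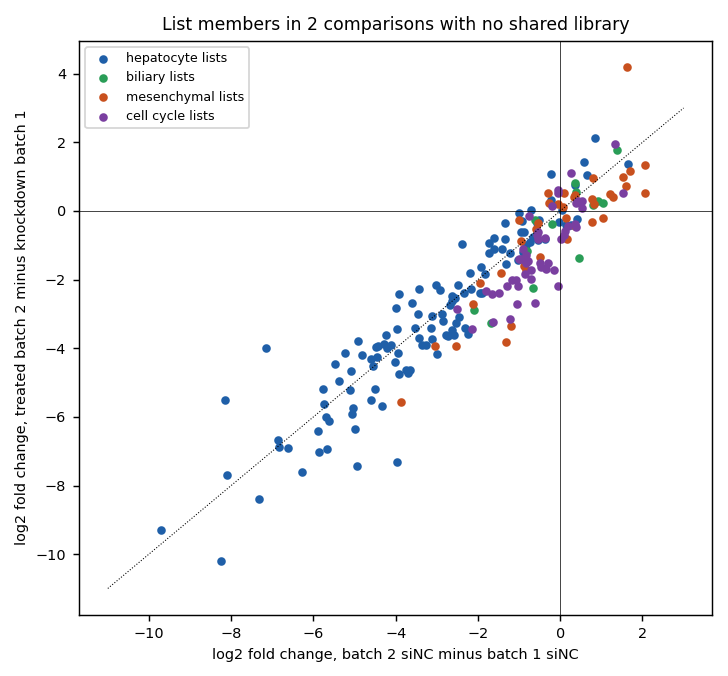
Log2 difference of list members between the control groups (horizontal) and between treated batch 2 and knockdown batch 1 libraries (vertical), which share no library. Points are genes coloured by list class, and the dotted line marks equal values. Most hepatocyte genes lie in the lower left.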

How the data were processed

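RNA sequencing of total RNA after ribosomal RNA removal gave the expected counts per gene that the authors deposited, made with STAR and Salmon on GRCh38.p14 per the submitters' processing notes. Their versions and the annotation, not given in the sources used here, could change single genes. Values within 0.005 of a whole number made up 94.82%, and counts were rounded, which moved none by more than 0.5. Symbols matched 61463 of 78894 genes. All 19 libraries were fitted together, with 1 mean for each group, in edgeR 4.0.16 in R 4.3.3 (TMM scaling, filterByExpr defaults, quasi-likelihood F test, 12 residual degrees of freedom, Benjamini-Hochberg adjustment over 23121 tested genes). Batch 2 controls have more spread than batch 1 controls, so the shared spread can make p-values too small for them. All adjusted p-values other than those of the ratios within libraries are from this edgeR test. Calls needed an adjusted p below 0.05, and a large call also a difference of at least 4-fold. Ratios within libraries were compared by exact permutation (scipy 1.17.1). The GC correction used a smooth trend of log counts on gene GC content per library and covered 87% of tested genes. Alternatives were other scalings, DESeq2 1.42.0, other filters, GC and length corrections, a replicate block, the compared groups alone and leaving out each library. The use of batch 2 replicate 1 alone was added after seeing the data. Named genes were markers and list members, with the 10 largest rises and falls at a mean of at least 5 CPM in 1 control group with no overlap between libraries. The libraries to compare, the 26 lists (355 genes, 320 tested) and the tests were chosen with earlier results of these data known, so no list count is independent evidence. Fits were tested on simulated counts. Limits from 0 counts used 3 counts per group and cover counting error only, as do 95% intervals of count ratios. Some items are not reported here.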

Additional observations from a re-analysis of the deposited data

Results flagged for a closer look

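For 4 of 320 tested list members every batch 2 library moved one way among the controls and the opposite way in the treated and knockdown libraries. The difference between these contrasts was not tested. By calls, 940 of the 13443 genes called between the controls were called in the opposite direction in the other libraries. The share of all genes by the rule used for the 4 members was not taken, so they are not shown to be unusual. ITGB4, an integrin subunit of biliary and other epithelia, was higher between the controls (log2 0.45) and lower in the other libraries (-1.37). CYP1A1, an AHR target, was lower between the controls (-0.75) and higher in the other libraries (2.27). BAX, a p53 target that promotes apoptosis, had 0.29 and -0.49, and TP53I3, another p53 target, 0.21 (not called) and -0.78. With the GC correction the control differences of ITGB4 (-0.05) and BAX (-0.07) changed sign and were not called (edgeR adjusted p = 0.74 and 0.242). Their differences in the other libraries were not recorded with this correction, so opposite directions are not shown with it. The treatments differ between the contrasts, and their part was not tested.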

How the results depend on the processing

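Batch, culture, library preparation and sequencing depth cannot be told apart here. Depth limits genes below about 1 CPM in batch 2. Calls numbered 12324 to 13512 without 1 library of the controls (at least 4-fold higher, 716 to 955, and lower, 931 to 1090), and 14452 to 14979 for the treated and knockdown libraries without 1 library. Replicate numbers did not pair the controls, since same-numbered libraries correlated at -0.084, 0.078 and 0.164 in their deviations. The replicate block gave 13123 and 14667 calls, and with the GC correction 12902 and 15560, in the control and the other comparison. Without an expression filter, 1274 genes were at least 4-fold higher. With at least 5 CPM in 3 libraries, which tests fewer genes, 170 were higher and 384 lower by that measure, and the compared groups alone gave 531 higher (11590 calls in all). Scaling by total counts reversed the hypoxia median (0.03), PPARA (0.02), RXRA (0.21), CCND1 (0.05) and VEGFA (0.20). The filter at 5 CPM, which drops members, reversed the AHR (0.55), endothelial (1.55) and lymphocyte (0.77) medians. The GC correction, alone and with the replicate block, reversed the biliary median (-0.05 in both), GATA4 (-0.33), ITGB4 (-0.05), TJP1 (0.04), CDKN1A (-0.22), RBL2 (0.31 and 0.30), CP (0.35), IRF7 (-0.61 and -0.60), BAX (-0.07) and SESN1 (0.09). Replicate 1 as the only batch 2 control, with the spread of other groups assumed for it, gave 10128 calls and reversed the interferon median (-0.09), IGF2 (-0.08) and IFI6 (-0.08). The cause of the other reversals was not tested. Over all alternatives, hepatocyte genes called lower numbered 101 to 111, with medians of -3.14 to -2.76.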

Other observations

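The 10 genes with the largest rises in the batch 2 controls among all genes came from no list fixed for these functions and were not tested for enrichment. PIGR, the receptor that carries IgA across epithelia, was at 0.984, 1.23 and 0.798 CPM in batch 1 and at 52.0, 66.3 and 57.4 CPM in batch 2, a log2 difference of 5.90 ± 0.15 (edgeR adjusted p = 5e-16). LCN2, an iron-scavenging defence protein, was at 4.03, 4.0 and 4.25 CPM against 63.3, 57.4 and 58.9 CPM. Both were far higher in every batch 2 library, LCN2 by 3.87 ± 0.09. EBI3, a subunit of interleukin 27 and 35, rose by 4.25 ± 0.22, PTX3, a pattern recognition protein, by 3.88 ± 0.25, FOSB, an AP-1 subunit, by 4.18 ± 0.23, and NRP2, a coreceptor of VEGF and semaphorins, by 4.06 ± 0.25. IL21R rose by 3.65 ± 0.27, VXN by 3.98 ± 0.52, and CT75 by 3.74 ± 0.58. POLGARF has a reading frame that overlaps POLG, so reads may be split between them. It had 0 counts in the batch 1 controls and 369 in the batch 2 controls. With the floor of 3 counts over the group this was at least 396-fold higher. In the treated and knockdown libraries PIGR differed by 5.96 and LCN2 by 3.94. POLGARF was not called there, at 0 to 2.92 CPM in the treated batch 2 libraries, while the others of these 10 genes were called higher.

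The 10 largest falls held CYP2A6, APOA2, G6PC1, ADH1A and CYP3A4, described above, and 5 further genes of the liver or of lipid metabolism. PLG, which encodes plasminogen, was at 45.0, 49.2 and 43.3 CPM in batch 1 and at 0.237, 0.0622 and 0.0741 CPM in batch 2, where it had 8 counts. THRSP, a regulator of lipogenesis, was at 19.8, 21.6 and 16.7 CPM against 0.0395, 0.187 and 0.0741 CPM. For genes with 2 or 3 counts in the batch 2 controls, the depth-corrected ratio of batch 1 to batch 2 was 340 for SPP2 (95% counting interval 116 to 1650), 317 for CYP2A7 (87.5 to 2620), whose reads are shared with CYP2A6, and 260 for PFKFB1 (71.8 to 2150), an enzyme that sets fructose 2,6-bisphosphate.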
